A study of Mus musculus with 14 samples.

Results

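Glucose uptake, glycolysis, the entry of pyruvate into mitochondria and the citric acid cycle are described here through 44 genes, taken by name. All 44 were among 48714 gene labels in the files, and 42 of them had a mean of 1 RPKM or more (reads scaled to transcript length and library size) and were tested with all 9921 genes that passed this filter. The 2 left out of the tests were the lactate exporter Slc16a3 and the kinase Pdk4. The cells were haematopoietic stem cells (HSCs), the rare marrow cells that renew the blood, from the bone marrow of C57BL/6 mice. Sorting parted them by calcium into calcium-high cells, labelled [Ca2+]high, and calcium-low cells, labelled [Ca2+]low. Each population had 7 libraries numbered 1 to 7, and each library was made from 100 cells. The labels name no mutation, transgene, drug, age or sex for either group. The series title links calcium in the cytoplasm to HSC dormancy, so the comparison asks whether transcripts of carbon metabolism go with the calcium level.

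Glycolysis splits glucose into pyruvate in the cytosol, and lactate dehydrogenase can turn that pyruvate into lactate for export. The mitochondrial pyruvate carrier and the pyruvate dehydrogenase complex instead deliver it as acetyl-CoA to the citric acid cycle, which feeds electrons to respiration. Pyruvate dehydrogenase kinases phosphorylate the complex and switch it off, and quiescent HSCs are known for leaning on glycolysis and on these kinases.

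Calcium-high and calcium-low HSCs had overlapping transcript levels in each tested gene. No member passed the test between the groups by limma at an adjusted p under 0.05, 0 of 42 against 0% of all tested genes, and 0 of 42 had an unadjusted p under 0.05, against 6.74%. With the replicate number as a block, 0 of 42 passed against 0.917% of all tested genes, and by limma-voom without the block 0 of 42, against 7.06%. Limma-voom with the block, added after seeing the data, called 1 of 42, Hk3, against 8.46%. In 0 of 42 members did the libraries of the groups not overlap, against 0.141% of all tested genes. The differences on the log2(RPKM + 1) scale ran from -0.30 for Hk3 to 0.21 for Pdk2. The 95% interval stayed within 1 log2 unit of 0 for all 42 members with either fit, and within 0.5 for 29 of 42 without the block and 39 of 42 with it. Between replicates 1 to 3 and replicates 4 to 7 of both groups 9 members were higher and 10 lower in replicates 1 to 3, against 22.4% and 21.7% of all tested genes. The lower ones were 8 glycolytic genes, Pdk2 and Mdh2, and the higher ones belonged to pyruvate entry, its kinases and the cycle. In bulk libraries fewer cells of a type and less RNA per cell cannot be told apart. Nothing in the labels says that the libraries came from separate animals, so p-values measure only the spread between these libraries.

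Some libraries stood apart from the rest. Of the HSC markers, Kit was at 59.3 to 76.1 RPKM and Hlf at 24.4 to 56.4 RPKM in all libraries. Procr ran from 1.48 to 10.7 RPKM and Slamf1 from 1.08 to 4.67. The 12 HSC markers summed to 202 RPKM in calcium-low and 206 in calcium-high replicate 3, against 235 to 388 in the other 12 libraries. Their sum had a median of 325 RPKM in calcium-high and 267 in calcium-low libraries, and its part in the results was not tested. The calcium-low library of replicate 3 held 284 RPKM of 10 cycling markers, against 5.68 to 28.6 in the other 13, and 771 RPKM of 10 neutrophil markers, against 9.80 to 106. The neutrophil sum there came mostly from S100a8 (392 RPKM), S100a9 (223) and Ngp (98.4). Prtn3, at 4.74 RPKM, was the lowest of all libraries there, and Mpo was at 1.31. The 11 erythroid markers summed to 170 RPKM in that library and to 92.9 in calcium-high replicate 3, against 12 to 64.2 in the other 12. Car1 held 120 and 62.5 RPKM of these sums, and Klf1, Tfrc and Ermap were also highest in both. Hbb-bt, at 9.25 and 7.97 RPKM, and Alas2, at 0.791 and 0.592, were not raised there. The 5 markers of multipotent progenitors, led by Cd34, summed to 15.7 to 36.8 RPKM in calcium-high and 26.1 to 68.3 in calcium-low libraries, and their part in the results was not tested. B and T lineage markers Cd79a, Ms4a1, Pax5, Vpreb1, Cd3e, Cd3d, Cd3g and Trac were below 1 RPKM in every library. Cd79b of the B cell list was at 2.82 to 6.22 RPKM and Nkg7 of the T and NK cell list at 3.38 to 18.1 in calcium-high and 11.4 to 33.0 in calcium-low libraries, and their part in the results was not tested. Reads on listed genes numbered 3575282 to 7388350 per library for replicates 1 to 3 and 8280756 to 10296314 for replicates 4 to 7. Y-linked genes held 1298 to 1638 reads in replicates 1 and 2 of both groups and 0 to 4 in the others.

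The 44 genes spanned a wide range of levels, with the last step of glycolysis at the top. Ldha, the lactate dehydrogenase subunit that favours making lactate, had 73.3 to 129 RPKM over the 14 libraries, above every other member in median. Pkm, the pyruvate kinase of most tissues, followed at 39.4 to 89.1 RPKM, and then came Gpi1 (glucose-6-phosphate isomerase) at 32.5 to 66.0, Aldoa (aldolase A) at 24.6 to 61.2 and Eno1 (enolase) at 26.7 to 68.5. These ranges overlapped one another, and so did that of Mdh2, the mitochondrial malate dehydrogenase, at 22.7 to 56.7 RPKM, the most abundant enzyme of the cycle. At the bottom lay Pdk4 at 0 to 0.730 RPKM and Slc16a3 at 0.216 to 1.51 RPKM. Of the entry step Pdha1 was at 9.69 to 23.9 RPKM and Pdhb at 8.97 to 21.3, while Dlat, the acetyltransferase core of the pyruvate dehydrogenase complex, had 1.85 to 3.23 RPKM and the carrier subunit Mpc1 2.25 to 4.32. The tested glycolytic members summed to 392 to 638 RPKM per library and the cycle enzymes to 172 to 299. Gapdh, often the most abundant glycolytic transcript, was listed at only 5.95 to 14 RPKM. It shares stretches of at least 300 bases at 95% identity or more with the transcripts of 77 other annotated genes, and how reads that match several genes were counted is not stated in the sources. The same holds on a smaller scale for Pgk1 (4 other genes), Ldha and Eno1 (3 each). It also holds for Gpi1, Pfkp, Tpi1, Pgam1, Pkm, Ldhb, Pdha1, Pdhb and Suclg2 (1 each). The levels of all these genes are therefore uncertain.

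**Figure D1:**
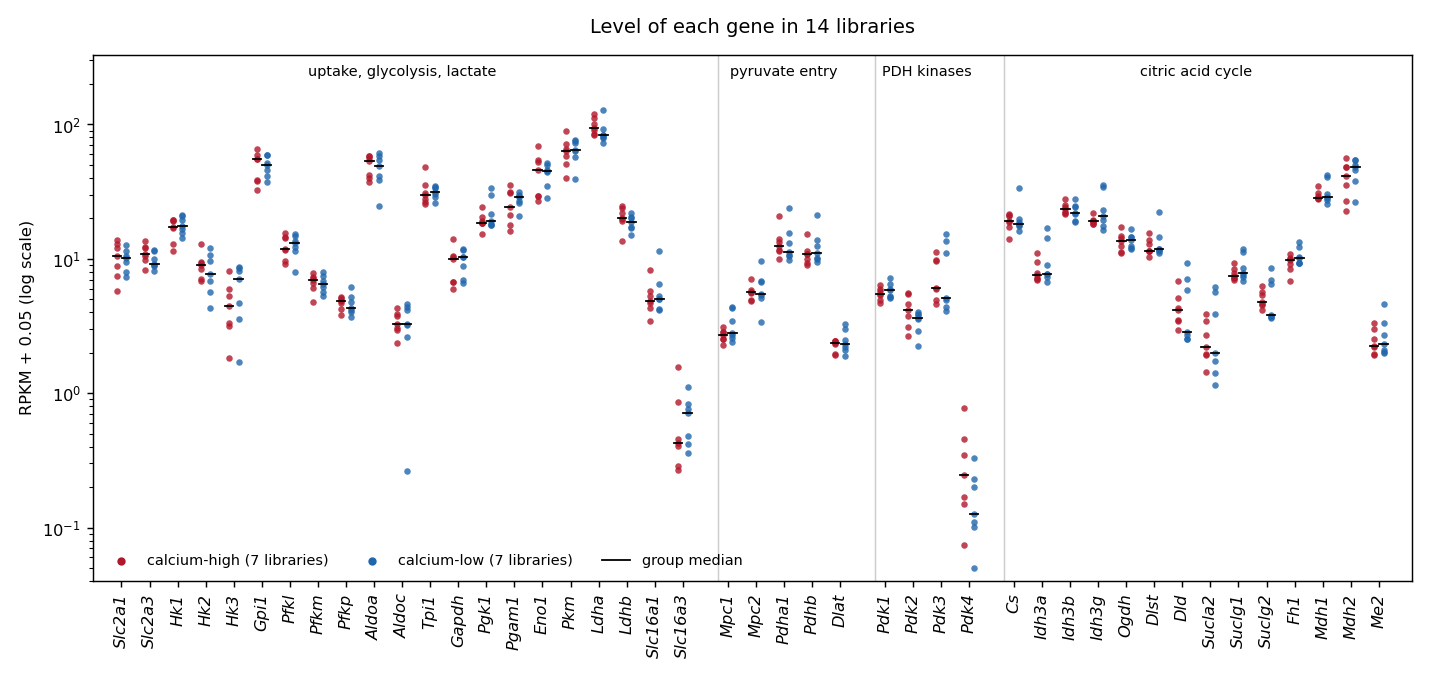
RPKM of each gene in the 7 calcium-high (red) and 7 calcium-low (blue) libraries, on a log axis after adding 0.05, with the group medians as black lines and the 4 roles set apart. The red and blue points of each of the 42 tested genes overlap, and Ldha is highest while Slc16a3 and Pdk4 are lowest.

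Promoter sequences of 3 members are shown. Ldha is the most abundant, Pdk3 is the member that was most raised in replicates 1 to 3, and Gpi1 is 1 of 4 glycolytic genes lower there in every library. Pdk3 and Gpi1 were taken from the comparison of library sets given below. The share of members called in it was near that over all tested genes. Each run is the 250 bases before the first listed start in RefSeq, written 5' to 3' on the gene's strand, build GRCm38.p6. Capitals mark ACGTG or GCGTG on either strand, the core letters of sites for hypoxia-inducible factors. ACGTG also lies inside CACGTG, the site of MYC and related factors.

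Ldha, chr7:46845554-46845803, plus strand: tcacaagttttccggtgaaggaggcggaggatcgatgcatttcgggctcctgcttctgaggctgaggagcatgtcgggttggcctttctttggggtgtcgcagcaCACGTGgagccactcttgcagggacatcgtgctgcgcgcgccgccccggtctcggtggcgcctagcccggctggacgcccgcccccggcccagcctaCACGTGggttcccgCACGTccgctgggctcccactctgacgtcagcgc
Gpi1, chr7:34230337-34230586, minus strand: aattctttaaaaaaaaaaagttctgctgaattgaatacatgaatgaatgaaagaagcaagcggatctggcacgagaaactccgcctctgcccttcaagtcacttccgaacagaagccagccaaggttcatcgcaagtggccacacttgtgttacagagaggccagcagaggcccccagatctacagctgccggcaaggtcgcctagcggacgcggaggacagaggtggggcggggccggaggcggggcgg
Pdk3, chrX:93832151-93832400, minus strand: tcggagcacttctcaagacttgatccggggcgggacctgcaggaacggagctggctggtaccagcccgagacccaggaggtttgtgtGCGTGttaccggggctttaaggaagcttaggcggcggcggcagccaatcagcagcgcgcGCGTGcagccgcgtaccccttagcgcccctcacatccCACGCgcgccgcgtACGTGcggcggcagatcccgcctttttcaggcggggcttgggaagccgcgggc

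Counting each strand, so that a CACGTG counts on both, the letters occurred 5 times before Ldha, 4 times before Pdk3 and 0 times before Gpi1. RefSeq promoters were matched for 41 of 44 members, and 29 of the 41 (70.7%) held at least 1 match. Among all listed promoters of the same length the share was 10431 of 27025 (38.6%). These included genes that were not tested because of their low level, and the share among tested genes alone was not computed. The comparison therefore cannot show that matches are more frequent in these members than in other expressed genes. By role, 15 of 20 promoters of uptake and glycolysis, 4 of 5 of pyruvate entry, all 4 of the kinases and 6 of 12 of the cycle held a match. The median difference between calcium-high and calcium-low HSCs was -0.05 on the log2(RPKM + 1) scale for 27 tested members with a match and -0.03 for 12 without.

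Uptake, glycolysis and lactate came first in the comparison of the calcium groups. Of 20 tested members 0 were higher and 0 lower by limma, without or with the block, 10 had a positive and 10 a negative difference, and the median was -0.01 against -0.03 over all tested genes. Hk3, a hexokinase of blood cells that traps glucose as glucose-6-phosphate (chr13:55005985-55021385), had the smallest p of all 42 members in the fit with the block, though not in the fit without it. Its level was 1.78 to 8.08 RPKM with a median of 4.40 in calcium-high libraries and 1.65 to 8.59 with a median of 6.97 in calcium-low ones. The ranges overlapped almost entirely, and replicate 3 was lowest in both groups, but calcium-high was the lower library in 6 of 7 pairs of the same number. The difference was -0.30 on the log2 scale (SE 0.29 without and 0.11 with the block). Its unadjusted p in limma with the block was 0.0165 and its adjusted p 0.226, and it was the 1 of 42 members under 0.05 before adjustment, against 13.9% of all tested genes. Of the alternatives run, only the fit with the block on reads recovered from the RPKM steps (limma-voom, chosen after seeing the data) called Hk3, with an adjusted p of 0.0314, where 8.46% of all tested genes were called.

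Ldha (chr7:46841475-46855627) reached 84.0 to 120.1 RPKM in calcium-high libraries, median 94.1, and 73.3 to 129 in calcium-low, median 83.6. Both replicate 3 libraries were the highest of their group, and without them every library was at 112 RPKM or below. The difference was 0.15 (95% interval -0.06 to 0.36 with the block), with calcium-high above calcium-low in 5 of 7 pairs and a limma adjusted p of 0.535. Ldhb, the subunit that favours turning lactate back into pyruvate (chr6:142490249-142507957), had 13.6 to 24.8 RPKM in calcium-high, median 20.2, and 15.0 to 21.9 in calcium-low, median 18.8. These ranges also overlapped, and the adjusted p was 0.632 (limma with the block). Slc2a3, the high-affinity glucose transporter GLUT3 (chr6:122727809-122801640), was at 8.18 to 13.6 RPKM, median 10.8, against 8.01 to 11.6, median 9.15. Calcium-high was the higher library in 5 of 7 pairs, with a difference of 0.16 and an adjusted p of 0.565. Pgk1, the phosphoglycerate kinase that makes the first ATP of glycolysis (chrX:106187100-106203699), was at 15.3 to 24.1 RPKM, median 18.5, against 17.8 to 33.8, median 19.2. The 2 groups overlapped here too, and the difference of -0.19 had an adjusted p of 0.568.

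The other 15 tested members of this role were no further apart. Their differences lay between those of Hk3 and Hk2, the hexokinase tied to growth, at 0.17 (95% interval -0.22 to 0.57 without the block). Calcium-high replicate 3 had the highest Hk2 level of all libraries, 12.9 RPKM, and without both libraries of replicate 3 the Hk2 difference was 0.06. By limma-voom it was -0.11 without and 0.11 with the block. Hk2 was higher in calcium-high in all 3 pairs of replicates 1 to 3 and in 1 of the 4 pairs of replicates 4 to 7. The enzymes around the committed step, phosphofructokinase, were nearly level: Pfkl differed by -0.03, Pfkm by 0.02 and Pfkp by 0.03. Slc2a1, the basal glucose transporter GLUT1, differed by 0.01, Pkm by -0.04 and Eno1 by -0.03. The widest interval after that of Hk3 was that of Aldoc, a minor aldolase, at -0.38 to 0.72. In calcium-low replicate 3 Aldoc had 0.212 RPKM from 14 reads, and without both libraries of replicate 3 its difference turned from 0.17 to -0.04. Slc16a1, the monocarboxylate transporter MCT1 that moves lactate and pyruvate, was at 3.39 to 8.18 RPKM in calcium-high and 4.14 to 11.3 in calcium-low libraries. Slc16a3, the exporter MCT4 of strongly glycolytic cells, was below the filter, at 0.216 to 1.51 RPKM, median 0.374, in calcium-high and 0.309 to 1.06, median 0.664, in calcium-low.

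**Figure D2:**
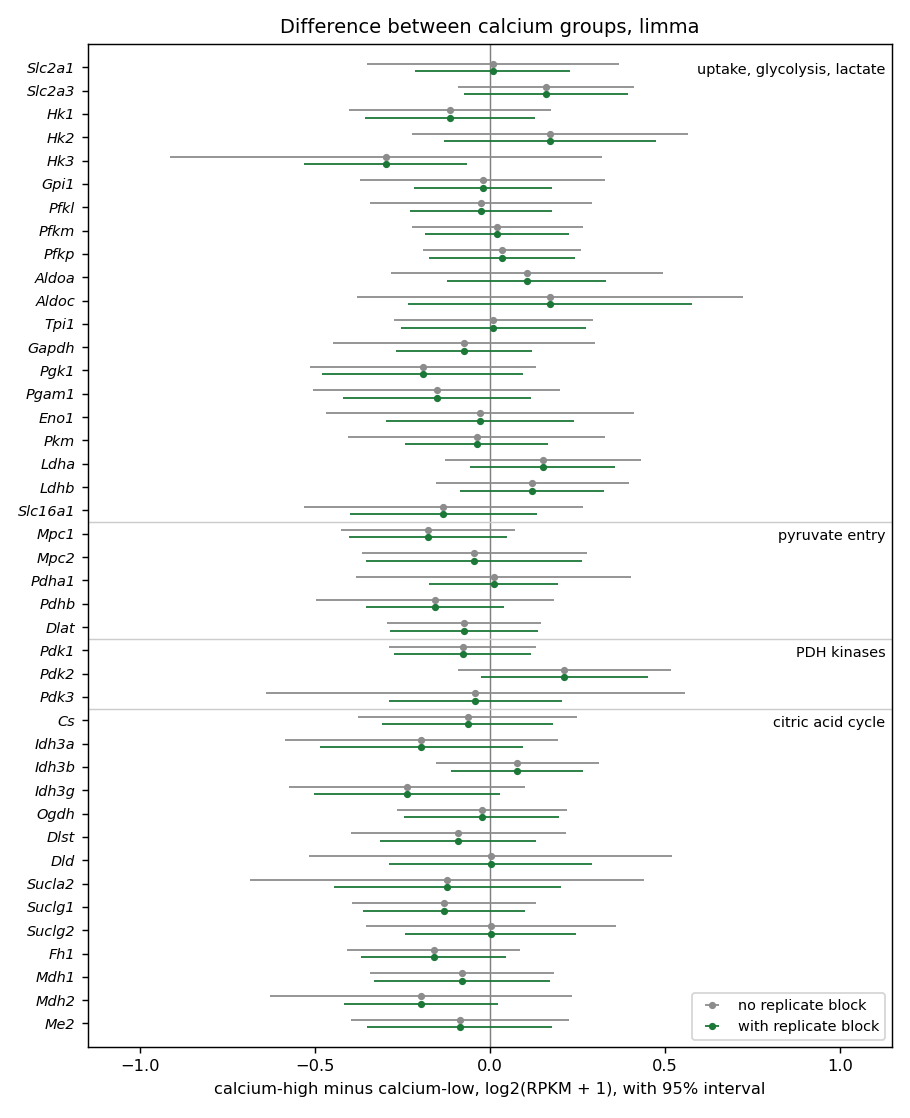
Difference between calcium-high and calcium-low for the 42 tested genes, in log2(RPKM + 1), by limma without (grey) and with (green) the replicate block; bars are 95% intervals. Of the green bars only that of Hk3 (-0.53 to -0.06) leaves out 0, and no gene passed after adjustment over all 9921 genes.

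Pyruvate entry held 5 tested members, none called by limma in either fit, with a median difference of -0.07. Mpc1 (chr17:8282904-8297661) and Mpc2 (chr1:165460637-165481214) form the carrier through the inner mitochondrial membrane. Mpc1 was at 2.25 to 3.04 RPKM, median 2.67, in calcium-high and 2.36 to 4.32, median 2.77, in calcium-low libraries, lower in calcium-high in 6 of 7 pairs. The 3 highest calcium-low libraries lay above every calcium-high library, yet the medians were close, and the difference of -0.18 had an adjusted p of 0.489 (limma with the block). Mpc2 had 4.84 to 7.02 RPKM, median 5.58, against 3.36 to 9.52, median 5.38, from 59 to 187 reads. Its calcium-low libraries spread over both sides of the calcium-high ones, with a difference of -0.05.

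Pdha1 and Pdhb encode the 2 chains of the pyruvate decarboxylase that opens the dehydrogenase reaction. Pdha1 (chrX:160122209-160138413) was at 9.91 to 20.8 RPKM, median 12.5, against 9.69 to 23.9, median 11.2. Pdhb (chr14:8165996-8173025) was at 8.97 to 15.2 RPKM, median 10.8, against 9.42 to 21.3, median 11. In both genes replicate 3 was the highest library of either group, and the other 12 libraries had 9.69 to 15.6 RPKM of Pdha1 and 8.97 to 13.8 of Pdhb. The difference was 0.01 for Pdha1 and -0.16 for Pdhb, where calcium-high was lower in 6 of 7 pairs and the adjusted p was 0.478 (limma with the block). Dlat (chr9:50634633-50659780) differed by -0.07, with 1.86 to 2.41 RPKM, median 2.32, in calcium-high and 1.85 to 3.23, median 2.28, in calcium-low libraries.

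The 4 pyruvate dehydrogenase kinases had unequal levels, and none of the 3 tested was called. Pdk1 (chr2:71873224-71903858) was at 4.63 to 6.31 RPKM, median 5.40, in calcium-high and 5.03 to 7.18, median 5.80, in calcium-low libraries, a difference of -0.08. Pdk2 (chr11:95026258-95041354) was at 2.59 to 5.50 RPKM, median 4.11, against 2.21 to 3.97, median 3.57. The 4 highest libraries of Pdk2 were calcium-high, in replicates 4 to 7, where calcium-high was above calcium-low in all 4 pairs, and over all replicates it was above in 6 of 7. The difference of 0.21 (95% interval -0.03 to 0.45 with the block) was the largest positive one among the members, and its limma adjusted p was 0.906 without and 0.429 with the block. Pdk3 (chrX:93764607-93832201) was at 4.58 to 11.1 RPKM, median 6.06, against 4.02 to 15.2, median 5.04. Its libraries fell into 2 clusters by replicate number in both groups, and the calcium groups differed by -0.04. Pdk4 (chr6:5483351-5496309) was below the filter, at 0.0242 to 0.730 RPKM, median 0.195, against 0 to 0.280, median 0.0755, and rested on 0 to 49 reads. It was above in calcium-high in 6 of 7 pairs, and this difference in level was not tested because the level was near that of a few reads. Its share of the kinases' RPKM was among the shares tested below (exact permutation p = 0.0625, adjusted 0.375) and rests on the same few reads.

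The citric acid cycle had 14 tested members, none called by limma in either fit. Of these 3 had a positive and 11 a negative difference, and the median was -0.09, where over all tested genes 4191 were positive and 5730 negative with a median of -0.03. Without replicate 3, 6 of the 14 were positive. Mdh2 (chr5:135778480-135790398), which regenerates oxaloacetate, was at 22.7 to 56.7 RPKM, median 41.5, in calcium-high and 26.4 to 54.1, median 48.3, in calcium-low libraries. Calcium-high was lower in 6 of 7 pairs although the ranges overlapped, with a difference of -0.20 (95% interval -0.42 to 0.02 with the block) and a limma adjusted p of 0.423, and it was -0.13 without replicate 3. Idh3g, a regulatory subunit of the NAD-dependent isocitrate dehydrogenase (chrX:73778963-73786897), was at 18.1 to 21.8 RPKM, median 19.0, against 16.2 to 35.3, median 20.8. The calcium-high libraries were tightly grouped, while the calcium-low libraries of replicates 1 and 3 reached 34.0 and 35.3 RPKM. The difference was -0.24 (adjusted p = 0.427, limma with the block) and -0.17 without replicate 3.

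Idh3a, the catalytic subunit of the same enzyme (chr9:54586334-54604661), was at 6.90 to 11.1 RPKM, median 7.55, against 6.64 to 17, median 7.65. It had the same high pair of calcium-low libraries, at 14.2 and 17 RPKM, with a difference of -0.20. Fh1, fumarase (chr1:175600374-175625635), was at 6.82 to 10.9 RPKM, median 9.75, against 9.18 to 13.2, median 10.03, and lower in calcium-high in 6 of 7 pairs. The difference of -0.16 had an adjusted p of 0.493 (limma with the block). Suclg1, the alpha subunit of succinyl-CoA ligase (chr6:73248382-73276911), was at 6.96 to 9.29 RPKM, median 7.42, against 6.79 to 11.8, median 7.85, a difference of -0.13. The other 9 enzymes of the role had differences from -0.12 for Sucla2 to 0.08 for Idh3b. Cs, citrate synthase, which starts the cycle, differed by -0.06, and Ogdh, the decarboxylase of 2-oxoglutarate dehydrogenase, by -0.02.

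The balance within enzyme families was also compared. Each share is a gene's percentage of its family's summed RPKM. Hk1, the housekeeping hexokinase, made up 41.9% to 71.4% of hexokinase RPKM, Hk2 15.2% to 40.6% and Hk3 5.58% to 23.8%. Ldha made up 77.0% to 83.5% of lactate dehydrogenase RPKM in 12 libraries and 89.8% and 89.6% in calcium-high and calcium-low replicate 3. Among 23 shares and the ratio of the glycolysis sum to the cycle sum, tested by exact two-sided permutation within the 7 pairs, 0 of 24 passed after Benjamini-Hochberg adjustment. With 7 pairs no single share could have passed over 24 tests, and in families of 2 genes both shares carry the same test. The smallest p, 0.0156, is the smallest that 7 pairs can give and belonged to the Idh3b share of the isocitrate dehydrogenase subunits (adjusted p = 0.375, exact permutation). That share was 42.3% to 51.4%, median 45.9%, in calcium-high and 33.9% to 46.3%, median 43.2%, in calcium-low libraries, higher in calcium-high in 7 of 7 pairs by 5.35 ± 5.09 percentage points (SD of the pair differences, n = 7). The Idh3g share was lower in 6 of 7 pairs (exact permutation p = 0.0469, adjusted 0.375). The ratio of the glycolysis sum to the cycle sum was 2.06 to 2.84, median 2.59, in calcium-high and 1.52 to 2.71, median 2.56, in calcium-low libraries (exact permutation p = 0.109, adjusted 0.5). Its lowest value was that of calcium-low replicate 3, the library with the cycling and neutrophil markers given above.

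**Figure D3:**
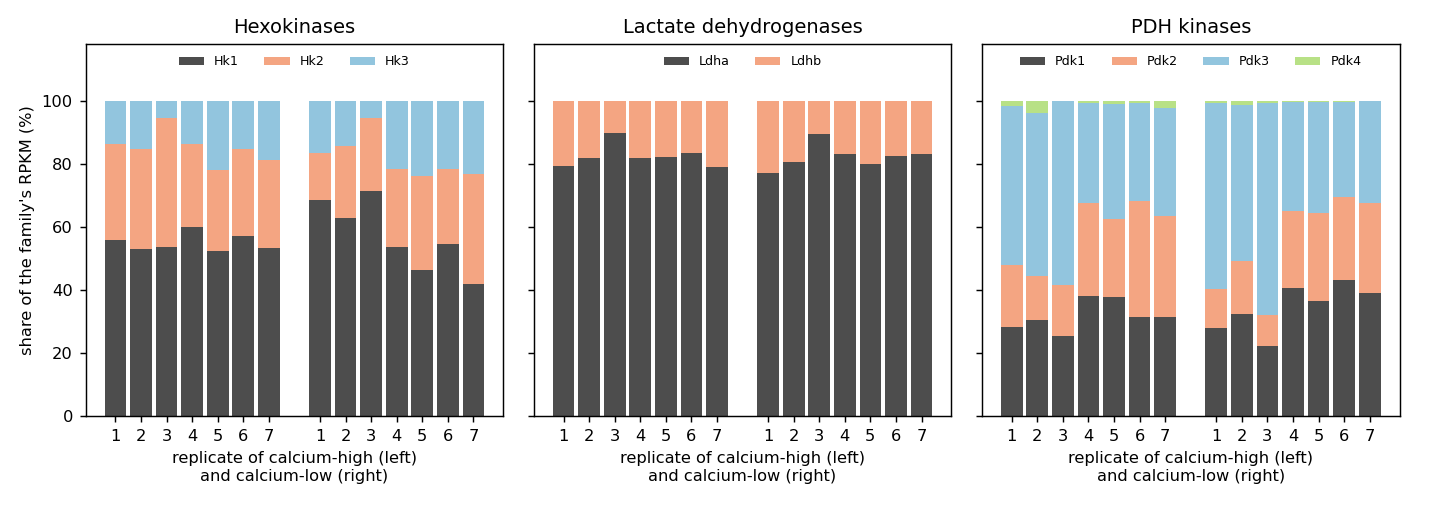
Share of each gene in its family's summed RPKM, in percent, for hexokinases, lactate dehydrogenases and pyruvate dehydrogenase (PDH) kinases, 1 stacked bar per library. Ldha nears 90% in both libraries of replicate 3, and Pdk3 makes up 49.4% to 67.3% of the kinases in replicates 1 to 3, against 30.0% to 36.3% in the others.

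Other genes of these pathways were compared between the calcium groups too. Of 89 further genes in 5 lists, 88 were found and 56 were tested, and limma called 0 of 56 with or without the block. The lists covered 16 tested isozymes and branch enzymes, 3 genes that control phosphofructokinase through fructose bisphosphates, 8 of the pentose phosphate pathway, 7 around pyruvate dehydrogenase and 22 of the cycle and its shuttles. Ldhd, which oxidises D-lactate, came closest. It was at 1.45 to 3.94 RPKM, median 3.22, in calcium-high and 0.802 to 3.86, median 1.60, in calcium-low libraries, and higher in calcium-high in 7 of 7 pairs. The difference was 0.53 (95% interval 0.28 to 0.78 with the block), and its limma adjusted p was 0.571 without and 0.0514 with the block. Ldhd passed once the block was joined to median-of-ratios scaling (added after seeing the data), with an adjusted p of 0.0266, where 3.31% of all tested genes were called.

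The remaining genes chosen by the same rule, the 2 with the smallest p of the block fit in each list, stayed further from the threshold in that fit. Slc25a1, the mitochondrial citrate carrier, had 6.81 ± 0.858 RPKM in calcium-high and 5.79 ± 0.523 in calcium-low libraries (SD, n = 7) and was higher in 7 of 7 pairs (limma block fit, adjusted p = 0.293). Fbp1, the fructose bisphosphatase that opposes phosphofructokinase, had 0.935 ± 0.358 against 1.48 ± 0.444 RPKM (limma block fit, adjusted p = 0.216). Taldo1, transaldolase of the pentose phosphate pathway, had 13.8 ± 5.81 against 17.4 ± 3.94 RPKM, with an adjusted p of 0.297 in the same limma fit. Pfkfb2, which makes the activator of phosphofructokinase, had 2.87 ± 0.636 against 2.35 ± 0.570 RPKM and an adjusted p of 0.386 in that fit. In limma-voom with the block the adjusted p was 0.0290 for Pfkfb2 and 0.0135 for Ldhd. For Gpd2, Tkt, Pck2, Pdpr and Idh2 the adjusted p in limma with the block was 0.432, 0.443, 0.501, 0.738 and 0.435.

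On the deposited scale the median calcium contrast had opposite signs in the library sets, for each role and for all tested genes. In replicates 1 to 3, 13 of 14 cycle enzymes were lower in calcium-high in all 3 pairs, against 47.1% of all tested genes, as were 8 of 20 members of uptake and glycolysis, 4 of 5 of pyruvate entry and 2 of 3 kinases. The exception in the cycle was Idh3b. In these replicates alone the median difference was -0.38 for the cycle and -0.16 for uptake and glycolysis, against -0.20 for all tested genes. This count moved with the scale. After median-of-ratios scaling, which centres all genes, 7 of 14 cycle enzymes were lower in all 3 pairs, against 18.9% of all tested genes. It was 5 of 14 against 11.1% after scaling the listed genes to 1 total and 6 of 14 against 13.5% after upper-quartile scaling. These scalings of the pair counts were chosen after seeing the data. In replicates 4 to 7, 3 of 14 cycle enzymes and 2 of 20 members of uptake and glycolysis were higher in calcium-high in all 4 pairs, against 27% of all tested genes, and the medians were 0.11 and 0.09 against 0.11. After median-of-ratios scaling 0 of 42 members were higher in all 4 pairs, against 10.7% of all tested genes. By limma 0 of 42 members were called in replicates 1 to 3 alone, where 0% of all tested genes were, and 0 of 42 in replicates 4 to 7 alone, against 8.14%.

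**Figure D4:**
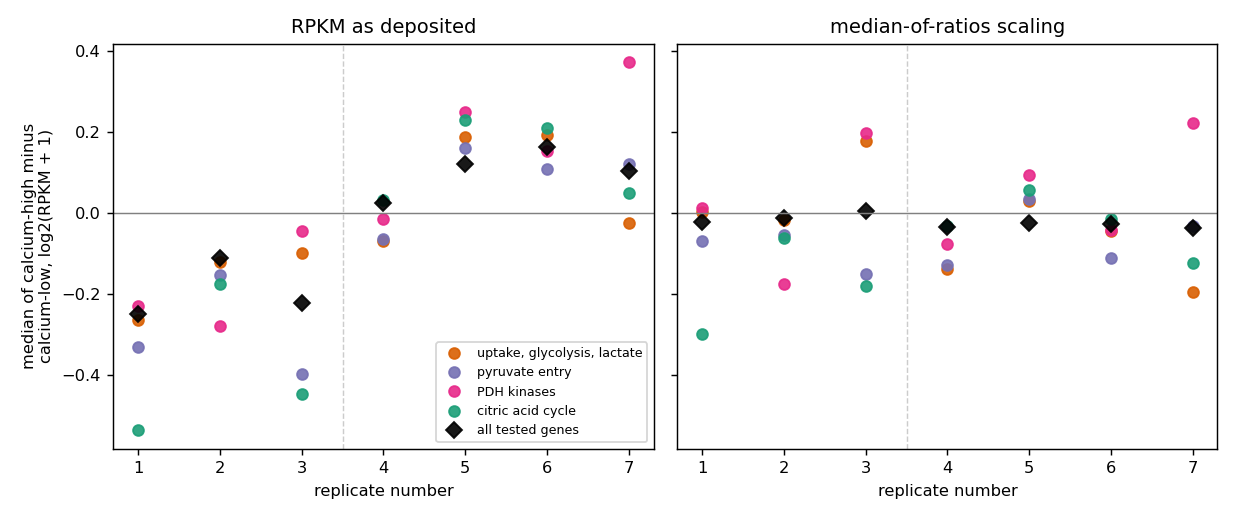
Median difference, calcium-high minus calcium-low in log2(RPKM + 1), of the members of each role and of all tested genes (black diamonds) in each pair of libraries of the same replicate number, on the deposited scale (left) and after median-of-ratios scaling (right). On the left the cycle enzymes lie at -0.54, -0.17 and -0.45 in pairs 1, 2 and 3, and all tested genes at -0.25, -0.11 and -0.22. On the right the cycle lies at -0.30, -0.06 and -0.18 in those pairs and all tested genes lie near 0.

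The difference between the sets was itself tested. The interaction of calcium group and library set called 0 of 42 members and 0% of all tested genes by limma without the block. Before adjustment 16 of 42 members had a p under 0.05 in that fit, 8 of them cycle enzymes, against 28.6% of all tested genes. In the fit with the block these were 24 of 42 members, 12 of them cycle enzymes, against 3724 of 9921 tested genes. With the block 1 of 42 members was called, against 1.66% of all tested genes. That member was Mpc2, whose contrast was -0.49 in replicates 1 to 3 and 0.28 in replicates 4 to 7, an interaction of 0.77 with an adjusted p of 0.0481. Mpc2 had 9.52, 6.64 and 6.77 RPKM in calcium-low and 5.60, 4.84 and 4.90 in calcium-high replicates 1 to 3, so calcium-low was higher in all 3. In replicates 4 to 7 it had 5.38, 5.09, 3.36 and 5.30 RPKM in calcium-low and 5.58, 7.02, 5.48 and 5.85 in calcium-high, so calcium-high was higher in all 4. When median-of-ratios scaling was joined to the block, the interaction of Mpc2 was 0.43 and its limma adjusted p 0.320, and 1 of 42 members became 0, against 0.0907% of all tested genes. Hk2 had an interaction in the other direction, -0.68 with the block (limma adjusted p = 0.0583). With that scaling joined to the block it was -1.03 (limma adjusted p = 0.110), so Hk2 passed in neither fit.

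The library sets themselves were also compared. Means of the 2 libraries of each replicate number were compared, 3 numbers against 4, by limma in a fit added after seeing the data. The sets follow the listing of the samples, and no label says that they were prepared apart. This fit called 19 of 42 members, a share near that over all tested genes, 44.2%. The roles were not tested against each other. Of the 20 members of uptake and glycolysis 0 were higher and 8 were lower in replicates 1 to 3, where 22.4% and 21.7% of all tested genes were. Of the 5 members of pyruvate entry 2 were higher, and of the 14 cycle enzymes 6 were higher and 1 was lower. Depth and Y-linked reads also differed between the sets, as given above, and their part in these differences was not tested.

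The 8 glycolytic genes lower in replicates 1 to 3 lay at uptake and at several steps down to enolase. Between them Tpi1 did not pass (-0.11), and neither did Pgk1 (0.29, limma adjusted p = 0.0598). Eno1 had 26.7 to 44.5 RPKM, median 29.2, in the 6 libraries of replicates 1 to 3 and 45.2 to 68.5, median 50.9, in the 8 of replicates 4 to 7 (difference -0.68, SE 0.11, limma adjusted p = 0.00213). Gpi1, whose promoter is printed above, had 32.5 to 45.8 RPKM, median 38.3, against 50.3 to 66.0, median 57.2 (-0.54, limma adjusted p = 0.00349). Aldoa had 24.6 to 42.3 RPKM against 49.0 to 61.2 and Gapdh 5.95 to 8.83 against 9.94 to 14. In these 4 genes every library of replicates 1 to 3 was below every library of replicates 4 to 7, against 6.55% of all tested genes. Hk3 differed most, at 1.65 to 4.63 RPKM, median 3.19, against 4.40 to 8.59, median 7.49 (-1.02, SE 0.19, limma adjusted p = 0.00327). Both libraries of replicate 3 were lowest for Hk3, and without them the difference was -0.76. The other 3 were Slc2a1 (-0.50), Pfkl (-0.40) and Pgam1, phosphoglycerate mutase (-0.43). Calls in the other direction came under other settings. Pgk1 passed as higher after median-of-ratios scaling (limma adjusted p = 0.0376) and after scaling the listed genes to 1 total (0.00516). Pfkp, at 0.21, passed as higher in those fits (limma adjusted p = 0.0470 and 0.0216) and without replicate 3 (0.0401). Pfkm and Pkm passed as lower after median-of-ratios scaling only (limma adjusted p = 0.0295 and 0.0321). The 8 genes called lower on the deposited scale all kept their direction under the other settings. They passed after median-of-ratios scaling, after scaling the listed genes to 1 total and without replicate 3.

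The members called higher in replicates 1 to 3 were 9, of pyruvate entry, its kinases and the cycle. Pdk3 had 9.54 to 15.2 RPKM, median 11, in the first set and 4.02 to 6.06, median 4.90, in the other, the largest positive difference among the members (1.08, SE 0.11, limma adjusted p = 0.000306). Without replicate 3 the difference was 0.997. Pdk2 went the opposite way, at 2.21 to 3.74 against 3.54 to 5.50 RPKM (-0.40, adjusted p = 0.00677, limma), so these 2 kinases moved in opposite directions. Sucla2, the beta subunit of the succinyl-CoA ligase that makes ATP, had 2.66 to 6.12 against 1.10 to 2.15 RPKM (0.94, SE 0.11). Suclg2, the beta subunit that makes GTP, had 5.30 to 8.48 against 3.56 to 4.71 RPKM (0.56, SE 0.08). Dld, the dihydrolipoamide dehydrogenase shared by the pyruvate and 2-oxoglutarate complexes, had 4.23 to 9.30 against 2.48 to 4.08 RPKM (0.84, SE 0.12). Pdha1 and Idh3b also had every library of replicates 1 to 3 above every library of replicates 4 to 7, which makes 6 such members against 10.5% of all tested genes.

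Mdh2 was the 1 cycle enzyme called lower, at 22.7 to 54.0 RPKM, median 31.2, in the first set and 41.5 to 56.7, median 48.3, in the other (-0.58, SE 0.17, limma adjusted p = 0.0245). Cs, Ogdh, Dlst, Suclg1, Fh1, Mdh1 and Me2 did not pass in either direction in this fit. After scaling the listed genes to 1 total, Suclg1 (0.31, limma adjusted p = 0.0164) and Mdh1 (0.25, limma adjusted p = 0.0221) passed as higher. The remaining calls were Pdha1 at 0.54 (0.33 without replicate 3), Pdhb at 0.44 (0.26 without replicate 3), Idh3b at 0.26, Idh3a at 0.44 and Idh3g at 0.39. Without replicate 3 Idh3a no longer passed (0.26, limma adjusted p = 0.0529), whereas Hk2 did (-0.60, limma adjusted p = 0.00124). The ratio of the glycolysis sum to the cycle sum was 1.52 to 2.38 in the first set and 2.56 to 2.84 in the other, with no overlap.

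**Figure D5:**
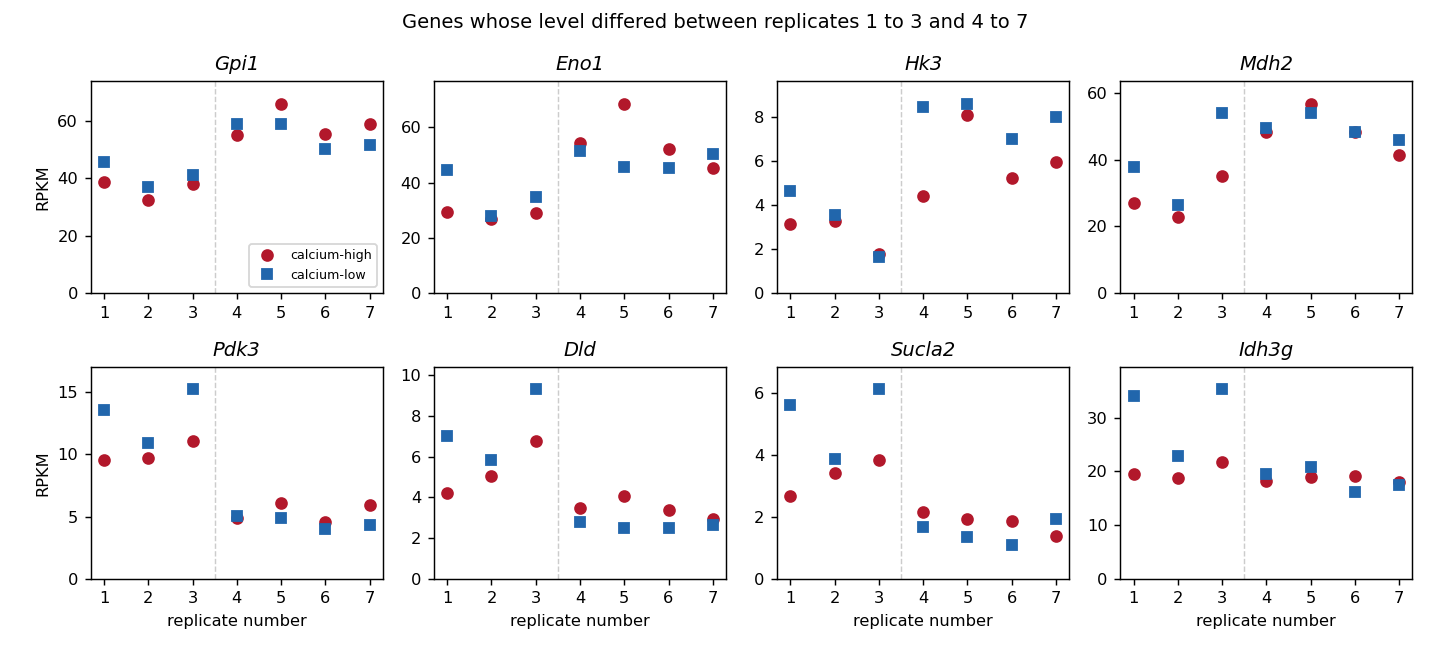
RPKM of 8 genes by replicate number in calcium-high (red circles) and calcium-low (blue squares) libraries; the dashed line parts replicates 1 to 3 from 4 to 7. Gpi1 and Eno1 are lower on the left in every library, Pdk3, Dld and Sucla2 are higher on the left in every library, and Idh3g and Mdh2 overlap between the sets.

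Replicate 3 was also compared with the other libraries. Both of its libraries were above the other 12 in Ldha, Slc16a1, Pdha1, Pdhb and Dlst, the succinyltransferase of the 2-oxoglutarate complex, 5 of 42 members against 5.4% of all tested genes. Both were below the other 12 in Hk3, Aldoc, Pkm and Ldhb, 4 of 42 members against 10.9% of all tested genes. The calcium-low library alone was the highest of all 14 in 16 of 42 members, 9 of them cycle enzymes, against 26.9% of all tested genes, and the lowest in 6 of 42, against 11.1%. This is the library with the high sums of cycling, neutrophil and erythroid markers, and their part in these levels was not tested. Without both libraries of replicate 3 limma called 0 of 42 members between the calcium groups, against 1.2% of all tested genes. The median differences were then -0.03 for the cycle and -0.01 for uptake and glycolysis, against 0.01 for all tested genes.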

How the data were processed

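Total RNA of 14 libraries of 100 sorted HSCs each was copied with not-so-random primers, made into Nextera XT libraries and sequenced on a NextSeq instrument, per the labels' protocols. The deposited values, computed by the authors, are RPKM. The file headers name no unit, which was read from the values. The submitters' processing notes name GRCm38, mm10 and edgeR, and the aligner, counting tool and annotation are not given in the sources used here. Each file listed 48737 labels, of which 23 differed between files because gene symbols had turned into serial numbers and were dropped, leaving 48714.

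The files' values were tested with limma 3.58.1 (R 4.3.3) on log2(RPKM + 1) with a mean-variance trend, for genes averaging at least 1 RPKM, and Benjamini-Hochberg adjustment over all 9921. Differences of genes near 1 RPKM are understated by the pseudocount of 1. For each gene the RPKM of the 14 libraries were whole multiples of 1 step: all 9848 tested genes above 0 in all libraries gave whole reads within 0.02 reads, against 0 of 500 jittered genes. The recovered library totals were 14275882 to 37151654 reads, of which listed genes held 25.0% to 32.5%, and these reads served limma-voom only. A gene of 1 kilobase listed at 0 could hold up to 0.0808 to 0.210 RPKM (3 reads, counting error only). Libraries of the same number deviated together from their group means (correlations 0.384 to 0.715 in 7 of 7 pairs, above the minimum of 0.1). Libraries of different numbers were not compared in this way, and the difference between the library sets can also give such correlations. The check therefore cannot show that libraries of the same number are pairs, and no label states a pairing. A fit with the replicate number as a block is given beside the one without. Only the limma fit without the block was tested on simulated data, which held no replicate or set effect. The fits with the block, limma-voom, the interaction and the library sets were not.

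The members and lists were chosen with earlier results of these data known, so no test over a list was made. Named members are, in each role, those called in either fit, the 5 with the smallest p of the block fit, and all 4 kinases. For Eno1 and Hk2 the more abundant of 2 listed copies was used. Gene coordinates are from the GRCm38 annotation (GENCODE), near-identical transcripts were found with blastn 2.17.0, and promoters are RefSeq's. Software for tables was pandas 2.3.3 and numpy 2.4.6 under Python 3.11.15, and for figures matplotlib 3.10.9. Alternatives were other scalings, filters, pseudocounts, summed copies, limma-voom, the block, the library sets, and each library left out in turn. Some marker genes are not reported here.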

Additional observations from a re-analysis of the deposited data

Results flagged for a closer look

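Among 88 groups of 7 values (44 genes in each calcium group), 10 had a highest library set far from the other 6, and chance gives about 1 in 20 such groups. Of these, 6 were values of calcium-low replicate 3: 129 RPKM for Ldha, 11.3 for Slc16a1, 23.9 for Pdha1, 21.3 for Pdhb, 33.4 for Cs and 22.1 for Dlst. The matching calcium-high replicate 3 stood out for Pdha1 at 20.8 RPKM, Pdhb at 15.2 and Idh3g at 21.8. Calcium-high replicate 5 stood out for Tpi1, triose phosphate isomerase, at 48.4 RPKM. It was also the highest of all libraries in Slc2a1, Gpi1, Pfkl, Gapdh, Pgam1, Eno1 and Pkm. The other tested members of uptake and glycolysis were highest in other libraries. Its glycolysis sum, 638 RPKM, was the largest, and the part of its high Lyz2 in these levels was not tested. The contrast of Mpc2 differed between the library sets by 0.77 on the log2 scale in limma with the replicate block (adjusted p = 0.0481). With median-of-ratios scaling joined to the block it was 0.43 (adjusted p = 0.320) and did not pass.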

How the results depend on the processing

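Of 663 values of 18 named members under the alternatives, 621 kept their direction and call, 41 turned sign in 11 members and 1 passed the threshold (Hk3). Members called between the calcium groups remained 0 of 42 under every alternative run except the replicate block with limma-voom (1). Over all tested genes the count was 0 as reported, 91 with the replicate block, 328 with median-of-ratios scaling joined to the block, 839 with the block and limma-voom, 700 with limma-voom alone, 808 in replicates 4 to 7, 119 without replicate 3 and 51 with the library set as a term. It was 4 after median-of-ratios, 3 after listed-total and 3 after upper-quartile scaling, 1 with a minimum of 5 RPKM and 1 with no filter, and 0 to 302 with 1 library or pair left out (302 without pair 3 with the block, 101 without calcium-high and 20 without calcium-low replicate 3). The interaction count was 165 with the block and 9 with that scaling joined to it.

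The median of pyruvate entry was -0.30 in replicates 1 to 3 alone. In that set Ldhb (-0.068) and Pdha1 (-0.11) turned sign, and in replicates 4 to 7 Pgk1 (0.056), Dlat (0.044), Mpc2 (0.28), Pdk1 (0.00014), Pdk3 (0.19), Idh3g (0.012), Fh1 (0.0054), Idh3a (0.069) and Suclg1 (0.054) did. Mpc2 also turned without replicate 3 (0.013), by limma-voom (0.11), with the block and limma-voom (0.021) and after listed-total (0.027) and upper-quartile scaling (0.0022). Pdk3 turned in the same fits, at 0.021, 0.091, 0.013, 0.040 and 0.014. With 1 library or pair left out the difference was -0.15 to 0.059 for Mpc2, -0.10 to 0.15 for Pdha1 and -0.16 to 0.12 for Pdk3. The replicate block alone changed no member's call in the calcium comparison and added Mpc2 in the interaction. Its 91 calls over all tested genes became 0 without replicate 4 or replicate 7. The fits with the block joined to limma-voom or to median-of-ratios scaling were chosen after seeing the data. Pdk4 (0 to 49 reads) and Slc16a3 (11 to 168 reads) were too shallow to compare by level, though their family shares were among the permutation tests.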
